A study of Rattus norvegicus with 14 samples.

Results

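The 10 genes described here encode proteins by which epithelial cells hold together and keep an apical and a basal side: the cadherins Cdh1 and Cdh2, the adhesion molecule Epcam, the polarity protein Crb3, the claudins Cldn3, Cldn4, Cldn6 and Cldn7, the tight junction membrane protein Ocln and its scaffold Tjp1. They were chosen by name: every array probe annotated to one of these symbols was taken (Epcam is written Tacstd1 in older annotation), which gave 15 of 41012 probes for 10 of 35522 names. Their signal was read in 7 rat cell lines, each hybridised to an array A and an array B, 14 arrays in all. The 3 blastocyst lines were Fi1 (Fischer strain, male), Fi2 (Fischer, female) and Wk8 (Wistar-Kyoto, female). The 3 bone marrow lines were CL19 (Fischer, female), 3C3 (Fischer, male) and RMAPC-1 (Fischer, male). RClone-2, a single mesenchymal line from a male Fischer rat, was the control. The study describes the blastocyst and bone marrow lines as hypoblast stem cells, obtained under the culture conditions of multipotent adult progenitor cells, and set the 2 origins against each other and against the control.

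Cdh1 (E-cadherin) binds its like on the neighbouring cell and anchors the adherens junction to actin, whereas Cdh2 (N-cadherin) does the same in many mesenchymal and neural cells. Tight junctions seal the space between cells with claudins and occludin, which Tjp1 (ZO-1) links to the cytoskeleton, and the Crumbs protein Crb3 marks the membrane above them. In the rodent blastocyst the hypoblast, or primitive endoderm, sorts to the surface of the inner cell mass and becomes a polarised epithelium. Migratory descendants of that layer, the parietal endoderm, lose part of these contacts.

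Levels are log2 signals relative to the 75th percentile of the same array, so 0 is a bright spot and 1 unit is a 2-fold change. A spot counted as measured where the scanner software called it well above background, which held for 61.8% to 68.1% of the spots of an array. The dimmest spot so called lay between -6.66 and -5.8 on the 14 arrays. The labels do not say that arrays A and B came from separate cultures, so they may be technical repeats. Their mean was therefore 1 value for the line, and p-values come from limma's moderated test over 3, 3 and 1 lines, adjusted over 29308 probes. RClone-2 was assumed to vary like the other lines. The arrays lay on 4 slides: slides 1 and 3 held the blastocyst lines and CL19, and slides 2 and 4 held 3C3, RMAPC-1 and RClone-2. In such bulk RNA, fewer cells expressing a gene and less RNA per cell cannot be told apart.

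The summed signal of markers of the labelled cell types followed the labels. All 6 primitive endoderm markers (Gata4, Gata6, Sox17, Sox7, Pdgfra, Foxa2) were above background on every blastocyst and bone marrow array, with a summed signal of 124 to 158 times the array's 75th percentile in blastocyst lines, 171 to 208 times in bone marrow lines, and 0.946 to 0.962 times in RClone-2. In RClone-2, 5 of the 6 were still above background on both arrays, and Sox7 was on neither. Of 7 mesenchymal markers, Dcn, Postn, Prrx1 and Thy1 were above background on no blastocyst and no bone marrow array and Pdgfrb on no blastocyst array, while all 7 were above it in RClone-2. Their summed signal was 0.589 to 0.698 in blastocyst lines, 0.95 to 1.25 in bone marrow lines and 278 to 344 in RClone-2, so mesenchymal RNA moved with every comparison against RClone-2. Its part in the results was not tested. Markers of other cell types also moved. The summed signal of 5 visceral endoderm markers (Afp, Ttr, Apoa1, Amn, Cubn), genes of the epithelial layer that the hypoblast also forms, was 4.67 to 50.7 in blastocyst lines, 90.2 to 161 in bone marrow lines and 0.173 to 0.224 in RClone-2. Between the origins 0 of the 5 passed in limma, and their median difference, 0.91, was toward higher in blastocyst lines, opposite to the sums. Amn and Cubn had the highest mean log2 levels over the lines, 3.26 and 3.39, against -5.23 to -4.63 for Afp, Ttr and Apoa1. The summed signal of 5 trophoblast markers was 0.166 to 0.407 in blastocyst lines, 0.704 to 2.08 in bone marrow lines and 0.061 to 0.0635 in RClone-2, with Elf5 and Gata3 above background on no stem cell array. For 5 haematopoietic markers (Ptprc, Spi1, Cd52, Itgam, Cd68) the sums were 8.59 to 21.5 in blastocyst lines, 10.9 to 37.5 in bone marrow lines and 0.221 to 0.236 in RClone-2, with Itgam above background on no array. These sums rest mainly on Cd52, whose mean log2 level over the lines was 2.19, against -8.12 to -1.55 for the others. Spi1 was above background on no bone marrow or RClone-2 array, and 0 of the 3 tested markers passed between the origins. Whether any of these marker groups moved the 10 genes was not tested.

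The 10 genes did not part the 7 lines in a common way. Between blastocyst and bone marrow lines, 10 of the 15 probes passed the test, 1 higher (Cdh2) and 9 lower in blastocyst lines. The 9 include all 4 probes of Tjp1. Counted by gene at the brightest probe, 1 of the 10 was higher, 6 were lower and 3 did not pass. Without scaling between arrays 4 of the 15 probes passed, 2 higher (Cdh2 and Cldn3) and 2 lower. Of all probes tested, 32.4% passed, 9.13% higher and 23.3% lower. Between blastocyst lines and RClone-2, 12 of 15 passed, 8 higher and 4 lower, against 48.7% of all probes (22.9% higher and 25.8% lower). Between bone marrow lines and RClone-2, 10 of 15 passed, 9 higher and 1 lower, against 46.8% of all probes (27% higher and 19.8% lower). Line means of blastocyst and bone marrow lines did not overlap for 10 of the 15 probes, 1 higher and 9 lower, against 52% of all probes, 15.4% higher and 36.5% lower. Blastocyst line means all lay on one side of the single RClone-2 value for 15 of 15 probes, 9 higher and 6 lower, as they did for 84.8% of all probes (39.8% higher, 45% lower). For bone marrow line means the counts were also 9 and 6, against 85.2% of all probes (50.4% higher, 34.8% lower). With the brightest probe standing for a gene, the median difference of the 10 genes was -0.84 in the first comparison, 5.30 in the second and 7.54 in the third, where the medians over all probes were -0.20, -0.07 and 0.19. Scaling on spike-in controls moved these 3 medians over all probes to -0.42, -0.68 and -0.20, and no scaling to 0.28, 0.38 and 0.15. All 15 probes passed the filter on dim signal. For the 7 probes of Cdh1, Epcam, Crb3, Cldn4 (1 of 2 probes), Cldn7 and Ocln that were above background on no RClone-2 array, that filter was passed through the stem cell lines, so that some difference was built in.

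**Figure D1:**
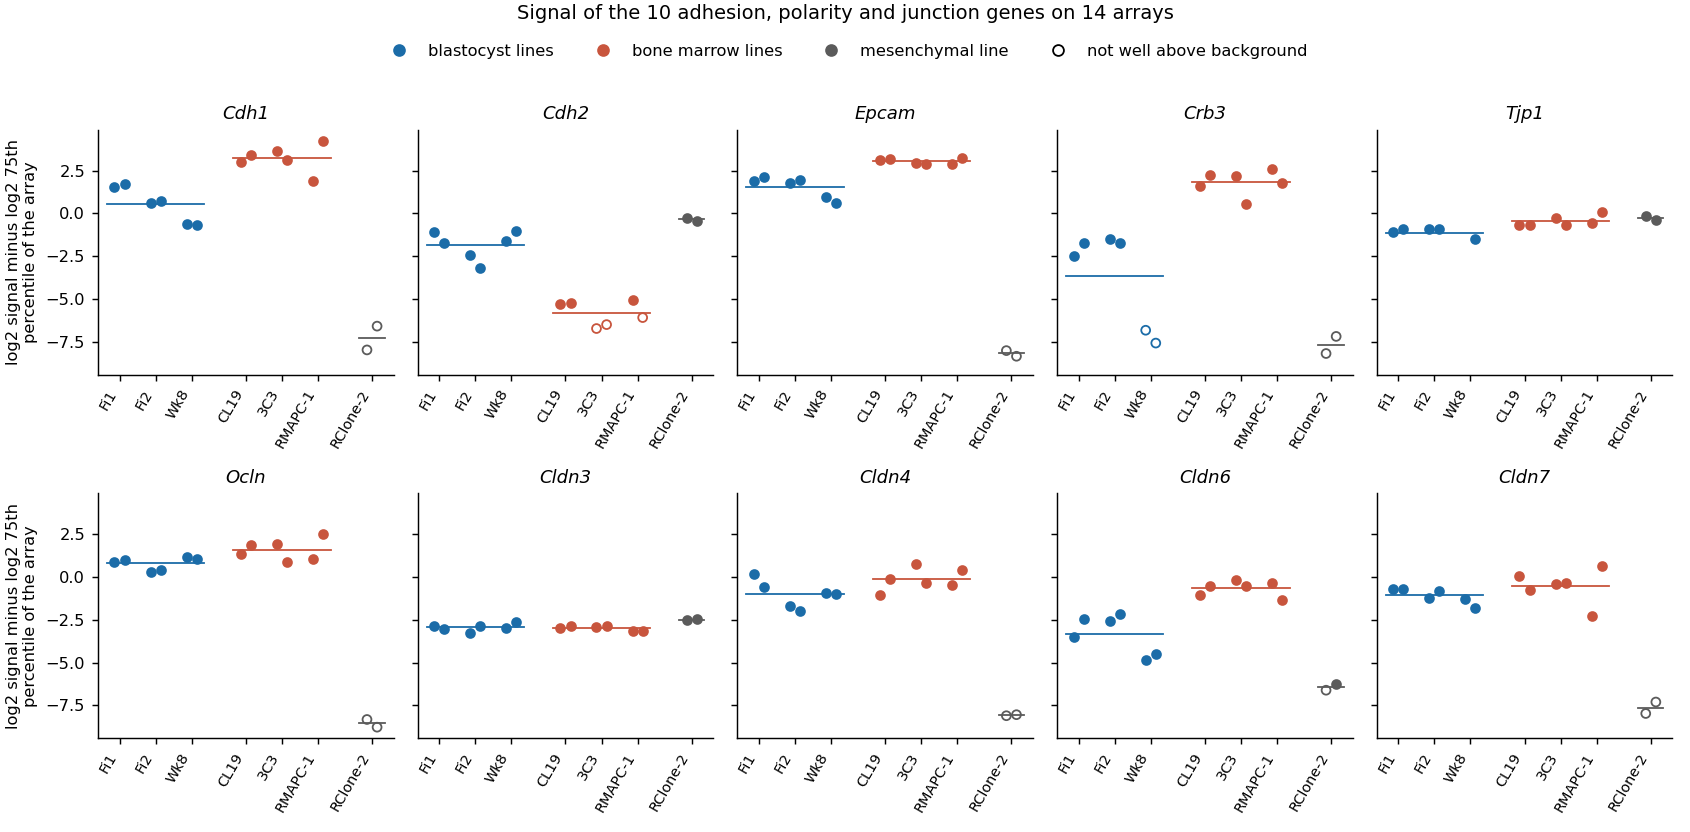
Level of the brightest probe of each of the 10 genes on each array (log2 signal minus the log2 75th percentile of the array) for the blastocyst, bone marrow and mesenchymal lines; arrays A (left) and B (right) of a line are separate points, open points were not well above background, and horizontal lines are means of the line means. Cdh1, Epcam, Crb3 and Cldn6 are highest in the bone marrow lines, Cdh2 is lowest there, and Cldn3 and Tjp1 have the smallest ranges over the 7 lines; array A of Wk8 is missing for Tjp1 because its spot was marked as an outlier.

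The cadherin signals ran in opposite directions. Cdh1, read by a probe at chr19:36511853-36511912 on the plus strand of the rn4 build, had its lowest, median and highest level on the 6 blastocyst arrays at -0.68, 0.65 and 1.69, against 1.90, 3.25 and 4.24 on the 6 bone marrow arrays and -7.98 and -6.59, both below background, in RClone-2. The groups did not overlap, and within the blastocyst group Fi1 (line mean 1.62) lay above Fi2 (0.65) and Fi2 above Wk8 (-0.64). Cdh1 was 6.36-fold lower in blastocyst than in bone marrow lines (log2 difference -2.67 ± 0.55, SE, adjusted p = 0.0187). It was at least 117-fold higher in blastocyst lines than in RClone-2 (adjusted p = 0.000565) and at least 745-fold higher in bone marrow lines than in RClone-2 (adjusted p = 0.00017). These and later lower bounds set the mean of the brighter group against that of the dimmer group, with each of its arrays put at its own dimmest signal called above background, or at the probe's signal where that was higher.

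Cdh2, spotted 10 times per array (chr18:8049328-8049387, minus strand, rn4), had its lowest, median and highest level on the blastocyst arrays at -3.22, -1.66 and -1.03, against -6.73, -5.68 and -5.05 on the bone marrow arrays, of which 3 of 6 were above background, and -0.28 and -0.43 in RClone-2. Every blastocyst array was above every bone marrow array, and RClone-2 was above all 12. Cdh2 was higher in blastocyst than in bone marrow lines (log2 difference 3.97 ± 0.53, adjusted p = 0.0079) and lower in bone marrow lines than in RClone-2 (-5.46 ± 0.75, adjusted p = 0.00211). Since 3 of the 6 bone marrow arrays, both of 3C3 among them, gave signal below background, the size of both differences rests in part on signal that was not measured. The blastocyst lines differed from RClone-2 by -1.49 ± 0.75, which did not pass (adjusted p = 0.147, 95% interval -3.33 to 0.34). Over the 10 spots the SD was 0.051 to 0.098 on blastocyst and RClone-2 arrays and 0.19 to 0.601 on bone marrow arrays, where the signal was near background. With normexp background correction, which compresses dim signals, the difference between the origins was 1.80 and still passed (adjusted p = 0.0151), and that between blastocyst lines and RClone-2 was -1.03 and passed (adjusted p = 0.023); with spike-in scaling the last was -2.10 (adjusted p = 0.0434).

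Epcam, a cell surface protein of most simple epithelia, had its lowest, median and highest level on blastocyst arrays at 0.61, 1.83 and 2.11, against 2.86, 3.02 and 3.24 on bone marrow arrays and -8.02 and -8.35 in RClone-2, where it was not above background. Groups did not overlap, and Wk8 was the lowest stem cell line. Its probe maps across an intron, to chr6:11181855-11182638 on the plus strand of rn4. Epcam was 2.79-fold lower in blastocyst than in bone marrow lines (-1.48 ± 0.33, adjusted p = 0.0232). Relative to RClone-2 it was at least 236-fold higher in blastocyst lines (adjusted p = 2.85e-05) and at least 659-fold higher in bone marrow lines (limma, adjusted p = 1.71e-05).

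Crb3, the only Crumbs gene among the 10 and the partner of the Pals1 scaffold at the apical membrane, showed the widest spread among the blastocyst lines. Its lowest, median and highest level was -7.58, -2.12 and -1.5 on blastocyst arrays, against 0.54, 1.99 and 2.59 on bone marrow arrays and -8.19 and -7.19 in RClone-2. Both arrays of Wk8 (-6.83 and -7.58) were below background, like RClone-2, whereas the 4 arrays of Fi1 and Fi2 (-2.48 to -1.5) were above it. Blastocyst and bone marrow arrays did not overlap, while those of Wk8 overlapped RClone-2. Crb3 was lower in blastocyst than in bone marrow lines (log2 difference -5.47 ± 1.47, adjusted p = 0.0366), a size that includes the unmeasured signal of Wk8, and at least 285-fold higher in bone marrow lines than in RClone-2 (adjusted p = 0.0123). The difference between blastocyst lines and RClone-2, 4.04 ± 2.09, did not pass (adjusted p = 0.156). Without Wk8, the only Wistar-Kyoto line, that difference was 5.83 and passed (adjusted p = 0.000313), and the difference between the origins was -3.69 (adjusted p = 0.00942).

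Promoter sequences, from 250 bases before to 50 bases after the start site in RefSeq's GRCr8 assembly, were found for 7 of the 10 genes: Crb3, Epcam, Ocln, Tjp1, Cldn3, Cldn6 and Cldn7. They were searched for the 6-base E-box CAGGTG, read CACCTG on the other strand, which the Snail and Zeb repressors of Cdh1 are known to bind. Of the 7, 6 held at least 1 copy, against 18.8% of 33469 rat promoters of the same length and 20.9% of the 8777 promoters with at least 60% G or C. The copies began 236, 181 and 125 bases before the start site in Crb3, 165 bases before it in Epcam, 137 and 68 in Ocln, 248 in Cldn3, 197, 56 and 16 in Cldn6, and 186, 147, 28, 17 and 3 in Cldn7. Tjp1 held no copy in this window, but its window was 33.7% G or C, against 58.0% to 75.7% in the other 6 genes. Whether it covers a promoter that Tjp1 uses was not tested, so Tjp1 cannot be called a gene without the E-box. A match describes letters and shows no binding. The windows of Crb3 (chr9:1987504-1987803, plus strand), Epcam (chr6:12649629-12649928, minus strand), Cldn7 (chr10:55188420-55188719, plus strand) and Tjp1 (chr1:128325311-128325610, minus strand) are shown. Crb3 and Epcam were among the genes that differed most between lines, the Cldn7 window holds the most copies and the Tjp1 window holds none. Capitals mark the E-box on either strand, and each runs 5′ to 3′ in the direction of the gene.
Crb3: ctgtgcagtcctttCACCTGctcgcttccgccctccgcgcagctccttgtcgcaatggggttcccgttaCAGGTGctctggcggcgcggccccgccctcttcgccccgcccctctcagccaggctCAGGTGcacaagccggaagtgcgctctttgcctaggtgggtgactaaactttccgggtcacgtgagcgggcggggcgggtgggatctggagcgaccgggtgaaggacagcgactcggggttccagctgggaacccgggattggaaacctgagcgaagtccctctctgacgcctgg
Epcam: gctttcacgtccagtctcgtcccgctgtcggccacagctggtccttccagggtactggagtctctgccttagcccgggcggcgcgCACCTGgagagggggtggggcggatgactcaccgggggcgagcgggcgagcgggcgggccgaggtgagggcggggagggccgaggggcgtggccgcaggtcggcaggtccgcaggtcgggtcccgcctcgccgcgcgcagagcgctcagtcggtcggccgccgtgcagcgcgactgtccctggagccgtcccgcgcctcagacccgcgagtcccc
Cldn7: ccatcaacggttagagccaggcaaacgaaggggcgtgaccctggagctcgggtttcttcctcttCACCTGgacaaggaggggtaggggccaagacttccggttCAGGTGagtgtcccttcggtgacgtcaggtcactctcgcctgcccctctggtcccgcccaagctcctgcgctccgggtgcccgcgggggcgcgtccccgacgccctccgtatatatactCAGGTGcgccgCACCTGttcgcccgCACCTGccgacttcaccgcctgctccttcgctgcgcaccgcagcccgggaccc
Tjp1: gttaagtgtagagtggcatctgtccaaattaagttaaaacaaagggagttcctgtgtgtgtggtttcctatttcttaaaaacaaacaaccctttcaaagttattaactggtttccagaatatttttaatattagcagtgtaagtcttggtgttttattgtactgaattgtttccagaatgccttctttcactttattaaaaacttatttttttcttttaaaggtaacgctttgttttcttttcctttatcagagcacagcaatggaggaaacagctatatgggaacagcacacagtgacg

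The 4 claudins behaved unlike each other. Claudins are membrane proteins whose extracellular loops set how tight a junction is and which ions pass it. Their probes are separate sequences of 60 bases, given here because a family of related genes is being compared. The longest run of bases shared by any pair of the 5 claudin probes was 9. The probes lie at different places in their transcripts, and none was set against the transcripts of the other claudins. Whether a probe also reads another claudin was therefore not tested. The probes lie, in rn4, at chr12_random:771373-771432 (Cldn3, minus strand), chr12:22816744-22816803 (Cldn4, plus), chr10:12946166-12946225 (Cldn6, plus) and chr10:56812476-56812646 (Cldn7, plus, across an intron). For Cldn4 the probe shown begins at base 610 of the transcript, and a further probe begins at base 1739.
Cldn3: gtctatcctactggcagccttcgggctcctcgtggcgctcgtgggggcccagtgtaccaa
Cldn4: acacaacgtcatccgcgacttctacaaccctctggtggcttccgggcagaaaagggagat
Cldn6: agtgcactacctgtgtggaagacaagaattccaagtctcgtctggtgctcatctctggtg
Cldn7: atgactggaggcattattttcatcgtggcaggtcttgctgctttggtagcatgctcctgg

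Cldn6, a claudin of early embryonic epithelia, had its lowest, median and highest level on blastocyst arrays at -4.82, -3.03 and -2.14, against -1.35, -0.53 and -0.15 on bone marrow arrays and -6.61 and -6.25 in RClone-2, with 1 of the last 2 above background. No groups overlapped, and Wk8 was again the lowest stem cell line (line mean -4.66). Cldn6 was 6.33-fold lower in blastocyst than in bone marrow lines (-2.66 ± 0.58, adjusted p = 0.0219). It was higher in blastocyst lines than in RClone-2 (3.11 ± 0.83, adjusted p = 0.0239) and higher in bone marrow lines than in RClone-2 (5.77 ± 0.83, adjusted p = 0.0025). The blastocyst call was lost without Fi1 (2.93, adjusted p = 0.0571), with normexp background correction (a difference of 1 on the log2 scale, adjusted p = 0.273), with the slide pair as a term and with sex as a term.

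Cldn7 separated the stem cell lines from RClone-2 without separating the 2 origins. Its lowest, median and highest level was -1.80, -1 and -0.67 on blastocyst arrays, against -2.28, -0.37 and 0.65 on bone marrow arrays and -7.97 and -7.30, below background, in RClone-2. The blastocyst and bone marrow arrays overlapped, and both the lowest and the highest bone marrow value came from RMAPC-1. The difference between the origins was -0.57 ± 0.26 (adjusted p = 0.135, 95% interval -1.20 to 0.06). Relative to RClone-2, Cldn7 was at least 38.1-fold higher in blastocyst lines (adjusted p = 5.1e-05) and at least 56.7-fold higher in bone marrow lines (limma, adjusted p = 3.79e-05).

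The probes of Cldn4, a claudin of tight, sealing junctions, gave different sizes of difference. The probe at base 1739 (chr12:22817873-22817932, plus strand, rn4), the brighter of the 2, ran from -1.98 over a median of -0.97 to 0.16 on blastocyst arrays, against -1.04, -0.22 and 0.78 on bone marrow arrays and -8.10 and -8.04, below background, in RClone-2. The probe at base 610 had -2.66, -2.08 and -0.91 on blastocyst arrays, against -1.68, -1.23 and -0.52 on bone marrow arrays, but -4.28 and -3.93, above background, in RClone-2. By the brighter probe Cldn4 was at least 40.1-fold higher in blastocyst and at least 73.5-fold higher in bone marrow lines than in RClone-2 (adjusted p = 0.000366 and 0.000223), whereas by the other it was 4.47-fold and 7.74-fold higher (2.16 ± 0.47 and 2.95 ± 0.47, adjusted p = 0.0121 and 0.00383). The origins overlapped on both probes, with differences of -0.87 ± 0.44 and -0.79 ± 0.33 that did not pass (adjusted p = 0.175 and 0.119). Without Fi1 the probe at base 610 differed by -1.14 and passed (adjusted p = 0.0359).

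Cldn3, another sealing claudin, varied least of the 4. It was above background on all 14 arrays, at -3.28, -2.91 and -2.64 (lowest, median, highest) on blastocyst arrays, against -3.15, -2.96 and -2.84 on bone marrow arrays and -2.49 and -2.47 in RClone-2. The origins overlapped and differed by 0.05 ± 0.13 (adjusted p = 0.795), with a 95% interval of -0.27 to 0.37, and the sign of this difference changed with the scaling and the lines used. Blastocyst and bone marrow lines were below RClone-2 by -0.46 ± 0.19 and -0.51 ± 0.19, and neither passed (adjusted p = 0.0884 and 0.0688). With spike-in scaling both passed (-1.07 and -0.90, adjusted p = 0.0124 and 0.0317), as they did over single arrays with line or array letter as a block. The bone marrow difference also passed with quantile normalization, with the percentile over detected probes, with median centring and without scaling, so 7 of 25 other settings called it. Without scaling Cldn3 was higher in blastocyst than in bone marrow lines (0.53, adjusted p = 0.025). Cldn3 was the only claudin of the 4 whose level was not higher in stem cell lines than in RClone-2.

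Ocln, the membrane protein that lines the tight junction strand beside claudins, was read by 2 probes. The brighter one (chr2:31318489-31318548, minus strand, rn4) had 0.29, 0.93 and 1.18 on blastocyst arrays, against 0.86, 1.61 and 2.52 on bone marrow arrays and -8.32 and -8.77, below background, in RClone-2. Arrays of the 2 origins overlapped while the line means did not. The difference was -0.80 ± 0.24 (1.74-fold lower in blastocyst lines, with an adjusted p of 0.0472), and it no longer passed without any 1 of Fi1, Fi2, CL19, 3C3 or RMAPC-1 (-0.90 to -0.57, adjusted p = 0.0729 to 0.131). In all it passed in 4 of 25 other settings: spike-in scaling, 1 probe per gene, and the fits without Wk8 or RClone-2. By the other probe it was -0.55 ± 0.26 and did not pass (adjusted p = 0.158). Relative to RClone-2, Ocln was at least 140.0-fold higher in blastocyst lines and at least 243-fold higher in bone marrow lines by the brighter probe (adjusted p = 9.11e-06 and 7.13e-06), and at least 45.2-fold and 66.0-fold higher by the other.

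Tjp1, the scaffold ZO-1 that joins claudins and occludin to actin and also sits at the adherens junctions of fibroblasts, was above background in all lines on each of its 4 probes. At its brightest probe (chr1:119686134-119686193, minus strand, rn4) the levels were -1.52, -0.94 and -0.91 on the 5 blastocyst arrays with a usable spot, against -0.68, -0.62 and 0.06 on bone marrow arrays and -0.15 and -0.36 in RClone-2. Array A of Wk8 was left out as an outlier spot, so the value of Wk8 there rests on array B. Blastocyst arrays lay below all bone marrow and RClone-2 arrays on all 4 probes. The differences between blastocyst and bone marrow lines were -0.79, -0.75, -0.75 and -0.68, and all 4 passed (adjusted p = 0.0114 to 0.0485). Those between blastocyst lines and RClone-2 were -1.20, -1.03, -1.02 and -0.90, and all 4 passed (adjusted p = 0.00452 to 0.0441). At the brightest probe this call was lost when Fi1, CL19, 3C3, RMAPC-1 or array A of RMAPC-1 was left out (-0.97 to -0.90, with adjusted p values of 0.056 to 0.0957). Between bone marrow lines and RClone-2 they were -0.41 to -0.22, and none passed (adjusted p = 0.231 to 0.575). The calls between the origins were not firm: of 25 other settings, the probe at chr1:119691677-119691736 passed in 19, those at chr1:119685960-119686019 and chr1:119708180-119708239 in 13 each, and the brightest in 3 of 23. With normexp background correction none of the 4 passed in either comparison with blastocyst lines (adjusted p = 0.0879 to 0.853), and without scaling none passed between the origins (-0.32 to -0.25), with signs kept. Against RClone-2 the same 3 dimmer probes passed in 20, 17 and 20 of 23 other settings and the brightest in 8 of 21. Without scaling 1 of the 4 passed there, and with the slide pair as a term also 1. In the setting reported here Tjp1 was the only one of the 10 genes lower in blastocyst lines than in RClone-2 with a passed test, whereas Cdh2 passed there with normexp and with spike-in scaling, and Cldn3 with spike-in scaling.

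**Figure D2:**
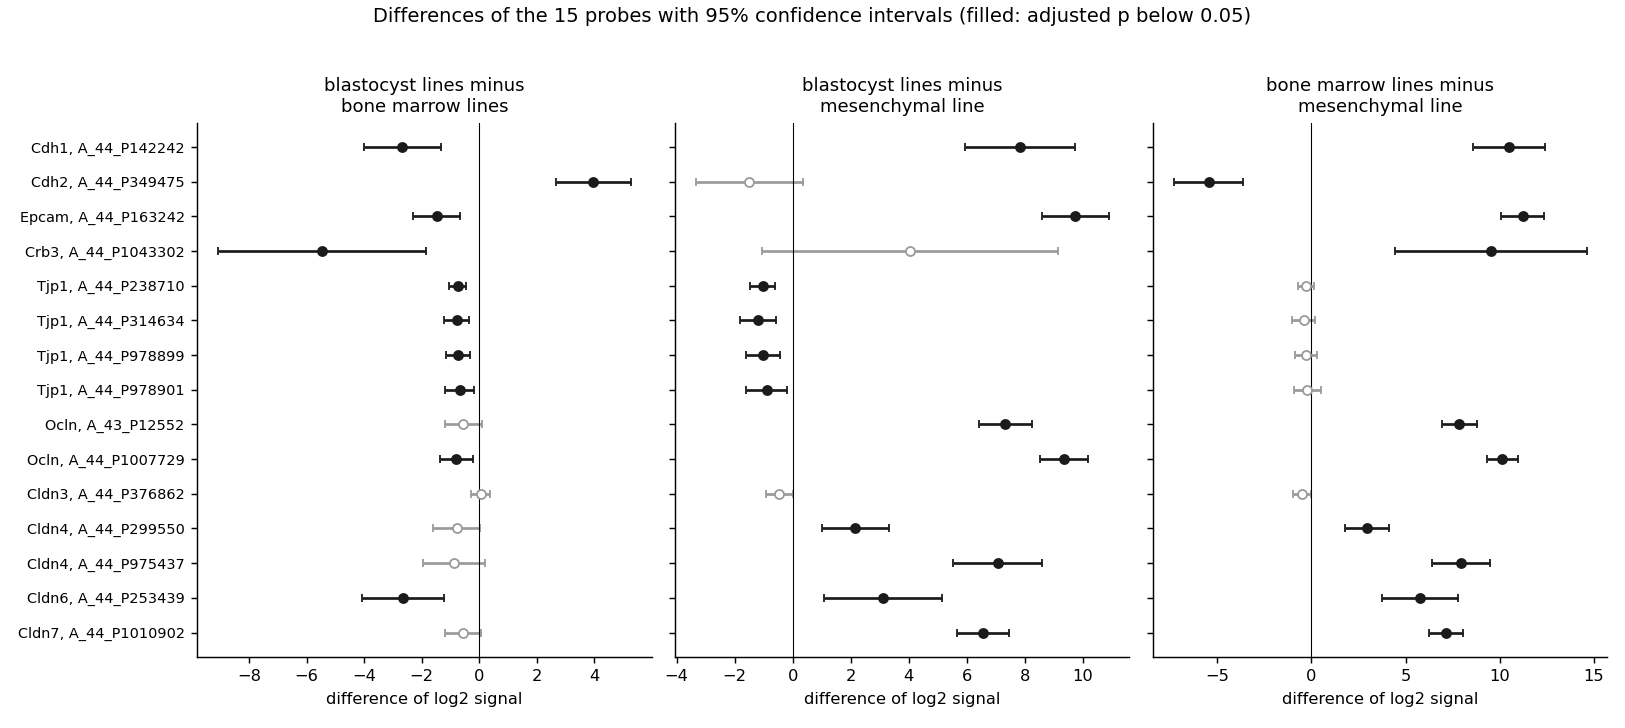
Differences in log2 signal for the 15 probes (rows) in the 3 comparisons (columns), each the first named group minus the second, with 95% confidence intervals from limma; filled points passed at an adjusted p below 0.05. Cdh2 stands on the opposite side from Cdh1 in each column, and the intervals of Crb3 are the widest (-9.08 to -1.86 in the left column).

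Origin and slide were nearly the same split, since CL19 was the only bone marrow line that shared slides with the blastocyst lines. Within slides 1 and 3, the 3 blastocyst lines differed from CL19 by -2.66 for Cdh1, 3.42 for Cdh2, -1.58 for Epcam, -5.57 for Crb3, -2.54 for Cldn6 and -0.81 for the brighter Ocln probe, and by -1.01 to -0.48 for the 4 Tjp1 probes. All these kept the sign of the full comparison, but none passed in limma (adjusted p = 0.184 to 0.412, 3 of the 15 at an unadjusted p below 0.05), nor did any of the 29308 probes there, of which 6177 had an unadjusted p below 0.05. A term for the slide pair likewise left no probe called, with 6 of the 15, and 7577 of all, at an unadjusted p below 0.05. Within slides 2 and 4, 3C3 and RMAPC-1 differed from RClone-2 by 10.50 for Cdh1, -5.74 for Cdh2, 11.17 for Epcam and 9.46 for Crb3, and 10 of the 15 probes passed. With normexp background correction the differences from RClone-2 in blastocyst and bone marrow lines were 4.11 and 6.72 for Cdh1, 4.78 and 6.27 for Epcam and 4.26 and 5.04 for the brighter Ocln probe, all smaller than in the main setting and all passed. Blastocyst lines and RClone-2 shared no slide, so for them slide and group can be told apart only through the bone marrow lines.

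The calls between the origins also depended on the setting and on single lines. Of 25 other settings, Cdh2 passed in 23, Cdh1 in 18, Epcam and Cldn6 in 16 each and Crb3 in 14. Epcam and Crb3 did not pass without scaling, nor did Epcam, Crb3 and Cldn6 with a term for sex or with arrays B alone, nor Cdh1 with arrays A alone. Without Wk8, the differences of Cdh1 and Cldn6 were smaller, -2.08 and -1.99 (adjusted p = 0.0182 and 0.0149), and without Fi2 that of Crb3 was larger, -6.49 (adjusted p = 0.0391). Without Wk8 the differences of Cdh1 and Cldn6 between blastocyst lines and RClone-2 were 8.42 and 3.78. Without CL19, 3C3 or RMAPC-1 in turn, 3, 2 and 2 of the 15 probes passed, against 5, 8 and 9 without Fi1, Fi2 or Wk8. Cdh1 differed by -2.67, -2.60 and -2.74 without those 3 bone marrow lines (adjusted p = 0.0517, 0.0639 and 0.0582), and Epcam by -1.43, -1.55 and -1.46 (adjusted p = 0.0646, 0.0648 and 0.0719). Crb3 and Cldn6 lost their calls without Fi1 as well (-6.23 and -2.85, adjusted p = 0.0612 and 0.054), and without the bone marrow lines they differed by -5.70 to -5.29 and -2.76 to -2.50 (adjusted p = 0.0906 to 0.101 and 0.0562 to 0.0732). Only 2 probes, those of Cdh2 and of Tjp1 at chr1:119691677-119691736, passed without any 1 line. The other 3 Tjp1 probes differed by -0.87 to -0.50 in the fits in which they no longer passed (adjusted p = 0.0555 to 0.134); these were the fits without Fi1, 3C3 or RMAPC-1 for all 3, without CL19 for 2 of them, and without Fi2 or Wk8 for 1.

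Agreement between arrays A and B was poorest for RMAPC-1, where the SD of their difference over all tested probes was 0.91, against 0.39 to 0.55 in the other 6 lines. In RMAPC-1, 5 of the 15 probes differed by more than 2-fold between the arrays: array B minus array A was 2.34 for Cdh1, 2.93 for Cldn7, 1.88 and 1.47 for Ocln and -1.04 for Cdh2. Its 2 arrays straddled the other bone marrow lines for Cdh1, at 1.90 and 4.24. Without array A of RMAPC-1, 7 of the 15 probes passed between the origins, and Crb3 did not (-5.33, adjusted p = 0.0523). Without array B, 8 passed.

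**Figure D3:**
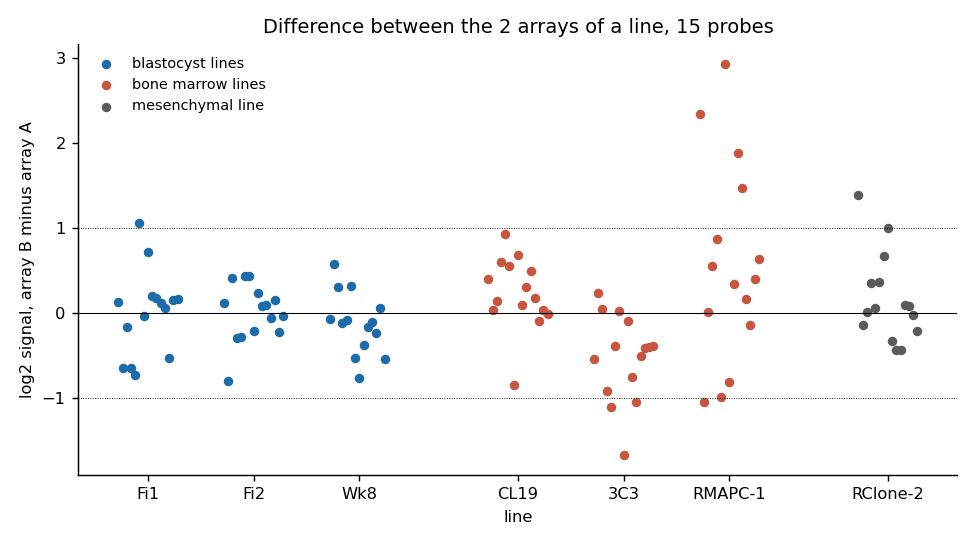
Array B minus array A (log2 signal) for the 15 probes in each line, coloured by group; dotted lines mark a 2-fold difference. RMAPC-1 has the widest spread, from -1.04 to 2.93.

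Most known repressors of cadherin transcription were lower in the stem cell lines than in RClone-2. Of 8 genes, 7 could be tested, and Snai3 was too dim. Against RClone-2, 6 of the 7 were lower and 1 higher in blastocyst lines (median -4.33), and 5 were lower in bone marrow lines (median -4.66). Over all probes, 25.8% were lower and 22.9% higher in blastocyst lines, and 19.8% were lower in bone marrow lines. Zeb2, a zinc finger repressor of Cdh1, was below background on all 12 stem cell arrays and at least 99.1-fold lower in blastocyst lines and at least 75-fold lower in bone marrow lines than in RClone-2 (adjusted p = 2.61e-05 and 3.05e-05). Snai2 was likewise below background there, at least 19.4-fold and 14.7-fold lower (adjusted p = 9.62e-05 and 0.00015). Zeb2 and Snai2 passed the filter on dim signal through RClone-2 alone, so that some difference was built in. The helix-loop-helix factors Twist1 (-7.39 ± 0.18 and -7.07 ± 0.18) and Twist2 (-4.33 ± 0.20 and -3.81 ± 0.20) were lower in blastocyst and in bone marrow lines than in RClone-2. Tcf4, another factor of that class, was lower in blastocyst lines (-1.04 ± 0.27, adjusted p = 0.0228), and its difference of -0.64 ± 0.27 in bone marrow lines did not pass (adjusted p = 0.103).

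Zeb1 and Snai1 differed from that pattern. Zeb1, the paralogue of Zeb2, averaged 0.23 in blastocyst lines, against -2.42 in bone marrow lines and 2.24 in RClone-2, and all 3 comparisons passed: blastocyst against bone marrow lines 2.65 ± 0.31 (adjusted p = 0.0062), blastocyst lines against RClone-2 -2.01 ± 0.43 (adjusted p = 0.0114), and bone marrow lines against RClone-2 -4.66 ± 0.43 (adjusted p = 0.000435). Its group means thus stood in the same order as those of Cdh2. Snai1 averaged 4.17 in blastocyst lines, against 2.86 in bone marrow lines and 2.80 in RClone-2, and was higher in blastocyst lines than in both (1.30 ± 0.16, adjusted p = 0.00705, and 1.37 ± 0.23, adjusted p = 0.00438). Bone marrow lines and RClone-2 differed by 0.07 ± 0.23 (adjusted p = 0.825). Between the origins the 7 repressors had a median of -0.32, which turned to 0.16 without scaling, with Zeb1 and Snai1 higher and Twist2 lower in blastocyst lines (-0.51 ± 0.14, adjusted p = 0.0383). This median includes Zeb2 and Snai2, whose signal was below background on every array of both origins.

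**Figure D4:**
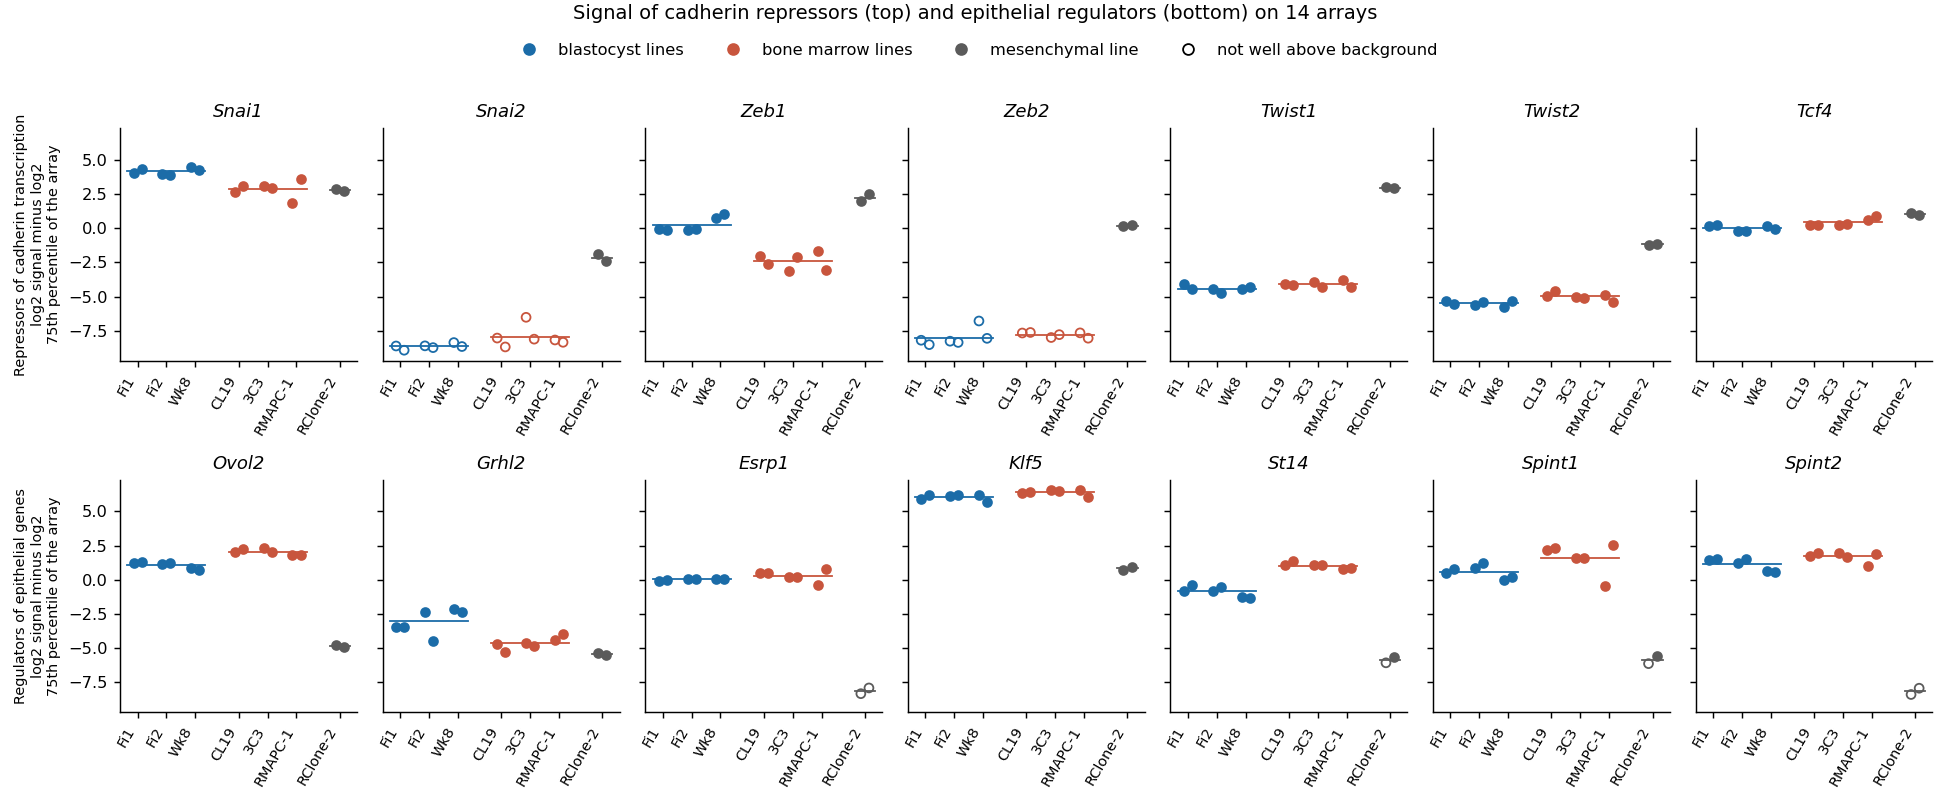
Level of 7 repressors of cadherin transcription (top) and 7 of the 12 tested regulators of epithelial genes (bottom) on each array (log2 signal minus the log2 75th percentile of the array); open points were not well above background and horizontal lines are means of the line means. Snai2 and Zeb2 are above background in RClone-2 alone, Zeb1 is lowest in bone marrow lines, and Esrp1 and Spint2 are below background in RClone-2.

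Regulators of epithelial genes were mostly higher in the stem cell lines. Of 14 genes, 12 were tested, and 11 were higher in blastocyst lines and 10 in bone marrow lines than in RClone-2, with medians of 4.88 in both. The shares of all probes called higher were 22.9% and 27%. Esrp1, a splicing factor of epithelial cells, was at least 81.6-fold higher in blastocyst and at least 97.8-fold higher in bone marrow lines than in RClone-2 (adjusted p = 2.02e-06 and 2e-06). The protease inhibitor Spint2 was at least 179-fold higher in blastocyst and at least 262-fold higher in bone marrow lines than there (adjusted p = 1.5e-05 and 1.24e-05). Genes given here and below as at least some fold higher were above background on no RClone-2 array. They passed the filter on dim signal through the stem cell lines, so that some difference was built in. Differences from RClone-2 in blastocyst and in bone marrow lines were 5.92 ± 0.25 and 6.90 ± 0.25 for the zinc finger factor Ovol2, 5.22 ± 0.17 and 5.57 ± 0.17 for Klf5, 5.02 ± 0.32 and 6.91 ± 0.32 for the membrane protease St14, and 6.47 ± 0.52 and 7.5 ± 0.52 for its inhibitor Spint1, and all passed. St14 and Spint1 were above background on 1 of the 2 RClone-2 arrays.

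The remaining regulators showed smaller or dimmer signals. Grhl3, a grainyhead factor of surface epithelia, was higher by 4.75 ± 0.50 in blastocyst and by 4.18 ± 0.50 in bone marrow lines than in RClone-2. Its mean level in RClone-2 lay below the dimmest signal called above background there, so both sizes rest in part on unmeasured signal. Elf3 was at least 3.53-fold and 5.52-fold higher, Ehf at least 2.61-fold and 2.97-fold higher, and Esrp2 higher by 0.72 ± 0.16 and 1.06 ± 0.16. Grhl2 was higher by 2.38 ± 0.55 in blastocyst lines (adjusted p = 0.0149), while its 0.77 ± 0.55 in bone marrow lines did not pass (adjusted p = 0.298). Rab25, a GTPase of apical recycling, differed by -0.09 ± 0.41 and 0.15 ± 0.41 and did not pass in either.

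Between the origins, 3 of the 12 regulators passed, where 32.4% of all probes did, with a median of -0.35 that turned to 0.13 without scaling. St14 was lower in blastocyst lines (-1.89 ± 0.23, adjusted p = 0.00662), as was Ovol2 (-0.98 ± 0.18, adjusted p = 0.0143). Grhl2 was higher in blastocyst lines (1.61 ± 0.39, adjusted p = 0.0284). The other 9 did not pass, at -1.03 to 0.58, from Spint1 (adjusted p = 0.0773) to Grhl3 (adjusted p = 0.255).

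Among the 15 tested tight junction genes other than claudins, Ocln and Tjp1, 10 were higher and 1 lower than in RClone-2 in blastocyst lines (median 3.02), and likewise 10 and 1 in bone marrow lines (median 3.49). Over all probes, 22.9% were higher and 25.8% lower in blastocyst lines, and 27% and 19.8% in bone marrow lines. Between the origins 1 of the 15 was higher and 1 lower, against 9.13% and 23.3% of all probes. Tjp3, the ZO-3 scaffold, averaged -2.69 in blastocyst lines, against -1.27 in bone marrow lines (-1.42 ± 0.35, adjusted p = 0.0286), and was at least 12.4-fold and 33.3-fold higher than in RClone-2. Esam, an adhesion molecule also known from endothelium, averaged -1.98 in blastocyst lines, against -2.95 in bone marrow lines (0.97 ± 0.25, adjusted p = 0.0343), and was at least 20.4-fold and 10.4-fold higher than in RClone-2. Markers of endothelium moved with Esam: 3 of 4 tested were higher in blastocyst than in bone marrow lines, against 9.13% of all probes. All 4 were higher than in RClone-2 in both origins, against 22.9% and 27% of all probes. Pecam1, Tek and Vwf were above background on no RClone-2 array. These genes passed the filter on dim signal through the stem cell lines, so that some difference was built in. The summed signal of the endothelial markers was 1.22 to 3.03 in blastocyst lines, 0.276 to 0.762 in bone marrow lines and 0.0302 to 0.0369 in RClone-2. The part of these markers in the Esam result was not tested.

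The 11 other tested claudins had no common direction. Against RClone-2, 2 were higher and 3 lower in blastocyst lines and 2 higher and 2 lower in bone marrow lines. Over all probes the shares were 22.9% and 25.8%, and 27% and 19.8%. Medians of the 11 were -0.14, which turned to 0.31 without scaling, and 0.11, which turned to -0.28 with spike-in scaling. Between the origins 1 was higher and 3 lower, close to the 9.13% and 23.3% of all probes. Of the 3, Cldn1, named here after its values were seen, was not above background on any array of either origin, and its sign changed without scaling. Cldn11, a claudin of myelin and testis, averaged -5.20 in blastocyst lines, against -2.85 in bone marrow lines (-2.35 ± 0.58, adjusted p = 0.03). Cldn8 was higher (0.90 ± 0.23, adjusted p = 0.0319) and Cldn9 lower (-0.58 ± 0.12, adjusted p = 0.0173) in blastocyst lines.

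Of 11 tested adherens junction and nectin genes, 6 were higher and 1 lower in blastocyst lines than in RClone-2, and 7 were higher and 0 lower in bone marrow lines (limma, median differences 0.84 and 0.75). The shares over all probes were 22.9% higher and 25.8% lower in blastocyst lines, and 27% and 19.8% in bone marrow lines. Between the origins 1 of the 11 was higher and 2 lower in blastocyst lines, against 9.13% and 23.3% of all probes. Afdn, the afadin that ties nectins to actin, was lower in blastocyst than in bone marrow lines (-0.70 ± 0.18, adjusted p = 0.0343) and higher in both than in RClone-2 (2.45 ± 0.26 and 3.14 ± 0.26). Vcl, which encodes vinculin, was higher (0.64 ± 0.17, adjusted p = 0.0373) and Cdh3, P-cadherin, lower (-0.63 ± 0.15, adjusted p = 0.0253) in blastocyst than in bone marrow lines. Of 7 other tested cadherins, only Cdh17, the liver-intestine cadherin, passed between the origins: it averaged 1.11 in blastocyst lines, against -0.65 in bone marrow lines (1.76 ± 0.43, adjusted p = 0.028) and -6.32 in RClone-2. It was also the only one of the 7 that was higher than in RClone-2 in either origin (7.43 ± 0.60 and 5.67 ± 0.60). Over all probes, 32.4% passed between the origins, and 22.9% and 27% were higher than in RClone-2 in blastocyst and bone marrow lines. Of the 7, 3 were lower than in RClone-2 in blastocyst lines and 1 in bone marrow lines, against 25.8% and 19.8% of all probes.

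Desmosome genes split. Of 10 tested, 5 were higher and 4 lower in blastocyst lines than in RClone-2, and 5 higher and 3 lower in bone marrow lines. All probes gave 22.9% higher and 25.8% lower in blastocyst lines, and 27% and 19.8% in bone marrow lines. Between the origins 1 of the 10 was higher and 1 lower in blastocyst lines, against 9.13% and 23.3% of all probes. Dsc2, a desmosomal cadherin, was at least 111-fold and 65.8-fold higher than in RClone-2, and higher in blastocyst than in bone marrow lines (0.76 ± 0.21, adjusted p = 0.0385). Pkp2, a plaque protein that links desmosomes to keratins, averaged -1.81 in blastocyst lines, against 0.48 in bone marrow lines (-2.29 ± 0.29, adjusted p = 0.00711) and 1.5 in RClone-2 (-3.31 ± 0.40, adjusted p = 0.00132).

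Of 20 tested genes of the Crumbs, Par and Scribble polarity complexes, 7 were higher and 3 lower in blastocyst lines than in RClone-2, and 12 higher and 4 lower in bone marrow lines. Over all probes, 48.7% passed in blastocyst lines (22.9% higher, 25.8% lower), close to the share of these genes. In bone marrow lines 46.8% passed (27% higher, 19.8% lower). Between the origins 2 of the 20 were higher and 6 lower in blastocyst lines, close to the 9.13% and 23.3% of all probes, with a median of -0.38. Scrib and Mark2, called here and named after their values were seen, changed sign without scaling, as did Pals1 against RClone-2 in blastocyst lines with spike-in scaling. Lin7c, which binds Pals1 in the Crumbs complex, was lower in blastocyst lines (-0.81 ± 0.21, adjusted p = 0.0318). The basolateral proteins Dlg3 and Llgl1 were higher (0.91 ± 0.25, adjusted p = 0.0392, and 0.89 ± 0.14, adjusted p = 0.0105). The median against RClone-2 in blastocyst lines, 0.44, turned to -0.18 when the arrays were scaled on their spike-in controls, and that between the origins turned to 0.11 without scaling.

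The calls between the origins in these wider lists depended on single lines as well. Of the 20 genes named above that passed between the origins, 4 did so in every fit without 1 line or array: Zeb1, Snai1, St14 and Pkp2. Ovol2 did not pass without 3C3 (-0.91, adjusted p = 0.0531), Cldn9 without 3C3 or RMAPC-1 (-0.60 and -0.62, adjusted p = 0.0544 and 0.0519), and Llgl1 when array A of RMAPC-1 was omitted (0.75, adjusted p = 0.0557). The other 13 each lost the call without any 1 of at least 4 of the 6 stem cell lines. Esam differed by 0.27 without array A of RMAPC-1 and stood at 1.67 without array B (adjusted p = 0.798 and 0.0619). Within slides 1 and 3, and with the slide pair as a term, none of the 20 passed. Against RClone-2, the named genes that lost a call when 1 line or array was omitted were Cdh3 in blastocyst lines without Fi1 or Fi2 (adjusted p = 0.051 and 0.0551), Snai1 in blastocyst lines and Ehf in both without array B of RMAPC-1 (adjusted p = 0.0532 for Snai1, and 0.111 and 0.168 for Ehf), and Llgl1 in bone marrow lines when array A of RMAPC-1 was left out (-0.60, adjusted p = 0.162). Other settings ended more of these calls. With normexp they were those of Tjp3, Grhl2, Cldn9 and Cdh3 in blastocyst lines, of Cldn11 and Llgl1 in bone marrow lines, and of Cldn8, Elf3, Esrp2 and Ehf in both. With the slide pair as a term they were those of Zeb1, Tcf4, Grhl2, Esrp2, Ehf, Cldn9 and Cdh3 in blastocyst lines. With arrays A alone Zeb1, Snai1, Elf3, Esrp2 and Cldn9 lost the call in blastocyst lines and Ehf in both, and with arrays B alone Tcf4, Grhl2 and Cdh3 lost it in blastocyst lines and Llgl1 in bone marrow lines. With spike-in scaling Snai1 lost it in blastocyst lines, Cldn8 and Lin7c in bone marrow lines and Esrp2 in both, and without scaling Tcf4, Cldn9 and Cdh3 in blastocyst lines. A term for sex ended those of Tcf4 and Cdh3 in blastocyst lines, and within slides 2 and 4 Ehf and Llgl1 did not pass in bone marrow lines. Tested against a fold of 1.5, Tcf4, Esrp2, Cldn9 and Cdh3 did not pass in blastocyst lines, nor Llgl1 in bone marrow lines.

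Over the 7 line means, the probes most like Cdh1 among 13581 probes with a gene symbol were those of Pkmyt1 (Pearson's r = 0.9968), Chd1 (0.9956), Mapk13 (0.9948), Zbtb43 (0.9945) and St14 (0.9943). Those most like Crb3 were Akr1c1 (0.9977), Gpr39 (0.9946), Fignl1 (0.9942), Mak16 (0.993) and Golt1a (0.9927). These are descriptions over 7 points that share 4 slides and include the single RClone-2 value. Over the 6 stem cell lines alone, r was 0.964 to 0.981 for the 5 probes with Cdh1 and 0.989 to 0.997 for the 5 with Crb3. The probes had been picked by r over 7 lines that include these 6, so the second r is no separate check.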

How the data were processed

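RNA of 7 rat cell lines, 1 µg per array and labelled with Cy3, was hybridised to 1-colour Agilent arrays, 2 per line. The authors deposited the scanner output, made with Agilent Feature Extraction 10.7.3.1 per the file headers, with probes placed on the rn4 build. Its processed signal is an intensity on a linear scale, background-corrected by that software per the file headers. The deposited value table holds log2 values equal to log2 of that processed signal, unscaled. Flags for spots well above background and for outlier spots are deposited in the same files with the other columns.

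From these, log2 processed signal minus the array's log2 75th percentile over non-control spots was computed, spots marked as outliers were dropped, spots of one probe averaged and arrays A and B averaged per line. The 75th percentile signal was 745.7 to 891.5 on blastocyst, 558.9 to 660.1 on bone marrow, and 599.0 and 630.7 on RClone-2 arrays. A probe was kept where 1 line or more had it well above background on array A and array B (29308 of 41012), and limma 3.58.1 (lmFit, eBayes, R 4.3.3) was fitted on 3, 3 and 1 lines with 4 residual degrees of freedom, adjusting p by Benjamini-Hochberg over all kept probes, with a threshold of 0.05. The precision is set by the number of lines. The scripts were tested on simulated data.

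The 10 genes, the wider lists and the tests were chosen with earlier results of these data known. A gene's value is that of its brightest probe, with its other probes beside it. Of each wider list at most 3 genes are named, those with the largest difference between the origins among those that passed, plus all tested repressors and epithelial regulators. Names follow the scanner files; 16959 probes also matched RefSeq's GRCr8 gene table. Alternatives were other background corrections, scalings, filters, slide and sex terms, single array letters, a replicate block, a test against a 1.5-fold change and leaving out each line. Markers of other cell types, for the whole lists, were summed per array as signal over the 75th percentile.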

Additional observations from a re-analysis of the deposited data

How the results depend on the processing

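Values under other settings are counts of probes passing in limma. Between blastocyst and bone marrow lines 9492 of all probes passed (28.2% of them higher), against 1618 with normexp background correction, 0 with the slide pair as a term (7577 at an unadjusted p below 0.05), 0 within slides 1 and 3 (6177), 5118 with a term for sex, 6171 and 3026 with arrays A or B alone, 663 when tested against a 1.5-fold change, and 3582 to 9806 without 1 line or array. The share of higher calls was 40.7% with normexp, 40.9% with quantile normalization, 45.5% with the percentile taken over detected probes, 44.3% with median centring, 16.0% with spike-in scaling and 84.7% unscaled. Of the 15 probes 10 passed, against 5 with normexp, 4 unscaled (2 higher and 2 lower), 4 of the 6 above background on all 14 arrays, 0 with the slide term (6 unadjusted), 0 within slides 1 and 3 (3 unadjusted), 3 with sex, 6 and 2 with arrays A or B alone, 1 against a 1.5-fold change, and 2 to 10 without 1 line or array. Against RClone-2, blastocyst lines had 14267 called probes (47.0% higher), against 6522 with normexp, 7256 with the slide term, 8005 against a 1.5-fold change and 12170 to 14634 without 1 line or array, and the share was 22.5% with spike-in scaling and 69.2% unscaled. Of the 15 probes 12 passed there, against 5 above background on all arrays, 7 of 10 with 1 probe per gene, 7 with the slide term, and 10 to 13 without 1 line or array. Bone marrow lines had 13711 called probes (57.7% higher, 36.2% with spike-in scaling), against 6891 with normexp, 7862 against a 1.5-fold change and 11558 to 14655 without 1 line or array. Of the 15 probes 10 passed there, against 1 above background on all arrays and 10 in every fit without 1 line or array. Leaving out Wk8 is also the fit without the Wistar-Kyoto strain. With array letter as a replicate block over single arrays, 11951, 15860 and 15476 of all probes passed, and 8, 13 and 11 of the 15. The letters did not pair the lines, since deviations of A and B correlated between lines at a median of 0.012 (-0.243 to 0.184). Where a cause is not shown by fewer probes or lines tested, it was not tested.

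The difference of Cldn3 between the origins, 0.05, turned to -0.17 with spike-in scaling, -0.02 with the slide term, -0.02 within slides 1 and 3, -0.01 with arrays A alone, and lay at -0.03 to 0.12 without 1 line or array. Signs also turned for the genes named next, none of which passed before or after; the called genes Cldn1, Scrib, Mark2 and Pals1 changed sign as the report gives. Between the origins these were Zeb2 (0.12 with quantile normalization, 0.24 unscaled, 0.02 with arrays A), Tcf4 (0.08 unscaled), Twist1 (0.16 unscaled), Ehf (0.29 unscaled, 0.35 with arrays A, -0.95 to 0.57 without 1 line or array), Esrp1 (0.22 unscaled), Esrp2 (0.14 unscaled), Klf5 (0.12 unscaled) and Rab25 (0.24 unscaled, 0.17 with arrays A). Between blastocyst lines and RClone-2 these were Rab25 (0.01 with normexp, 0.36 unscaled, 0.01 with sex, 0.06 with arrays A, -0.35 to 0.08 without 1 line), Vcl (0.14 with quantile normalization, 0.03 with the percentile over detected probes, 0.43 unscaled, 0.11 with arrays A, -0.16 to 0.14 without 1 line), Dlg3 (-0.55 with spike-in scaling, -0.01 with sex, -0.1 to 0.27 without 1 line or array) and Llgl1 (-0.46 with spike-in scaling, -0.05 with the slide term). Between bone marrow lines and RClone-2 these were Snai1 (-0.02 with the percentile over detected probes, -0.07 with median centring, -0.32 with spike-in scaling, -0.34 with arrays A, -0.22 to 0.36 without 1 line or array), Rab25 (-0.24 with spike-in scaling, -0.01 with the slide term, -0.01 within slides 2 and 4, -0.11 with arrays A, -0.01 to 0.34 without 1 line or array) and Cldn9 (0.03 with arrays A).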
